A study of Mus musculus with 4 samples.

Results

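The genes of the proteasome and of its assembly factors were compared between 2 populations of Py8119, a mouse mammary tumour cell line. Members were the protein-coding genes whose symbols begin with Psma, Psmb, Psmc, Psmd, Psme, Psmf or Psmg followed by a number, which gave 50 of the 50600 genes in the table. The symbol pattern also took in Psmc3ip, a recombination factor named after its binding to the Psmc3 product, which is not a subunit and was kept apart from the classes below. Psma8 of the testis proteasome and Psmb11 of the thymus proteasome were listed at 0 in every library, so 48 members could be tested, and Psmc3ip (adjusted p = 0.10 in limma) was among those that did not pass.

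The cells carry the genotype control (libraries hygro 1 and hygro 2) or Mtss1 overexpression (libraries Mtss1 1 and Mtss1 2). Both are Py8119, of the C57BL/6 strain and the mammary gland, labelled mesenchymal-like, grown in serum-containing medium without treatment. RNA was read as paired ends, and the labels do not say how Mtss1 was introduced, whether the populations were clones, or whether cultures were separate for the 2 libraries of a group. Each p-value below is thus set against library spread that may be only technical. By its title the series concerns p65, the NF-kB subunit encoded by Rela, and its loss through ubiquitination under Mtss1. The proteasome is the protease that carries out such degradation, and the values below describe how the RNA of its parts differed between the populations.

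The proteasome degrades proteins that carry ubiquitin chains. Its core particle is a barrel of stacked rings, in which alpha subunits form the gated ends and beta subunits the inner rings with the protease sites. A regulatory particle docks on the barrel: its base holds a ring of ATPases that unfold substrates and thread them into the core, and its lid removes ubiquitin. In cells exposed to interferon, immune beta subunits replace the constitutive catalytic ones, and other caps such as PA28 can take the place of the regulatory particle. Dedicated chaperones assemble each ring.

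Levels are in CPM, counts scaled to totals near 1000000, with column sums of 982877 to 1016225. The libraries held 15594210 to 22081639 reads, as recovered from the smallest values. Each tested member had at least 110 reads in every library. Mtss1 read 54.5 and 50.5 CPM in the hygro libraries and 118 and 119 CPM in the Mtss1 libraries, and Rela differed by -0.07 ± 0.05 (SE) in log2 fold change, with a limma adjusted p of 0.22. Of the mesenchymal markers Vim read 4010 to 4302 CPM over the 4 libraries, and in the whole list of 8, 2 rose (Twist1 and Zeb1), 4 fell (S100a4, Fn1, Zeb2 and Cdh2) and 2 did not pass. Of 9 epithelial markers Epcam, Krt5 and Krt19 were listed at 0 and 4 more were under the filter, while Krt8 (562 and 608 CPM, then 367 and 368 CPM) and Krt18 (286 and 285 CPM, then 234 and 235 CPM) fell. The part of these shifts in the results below was not tested. Summed levels were 0.266 to 0.598 CPM for 10 immune markers and 0.368 to 1.19 CPM for 5 endothelial markers. The adipocyte list was carried by Fabp4, which rose from 36.8 to 83.2 CPM (limma adjusted p = 8.4e-14) while Adipoq was listed at 0. In bulk RNA fewer cells with a transcript and less of it per cell cannot be told apart.

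Proteasome genes moved in both directions and by small steps. At a limma adjusted p under 0.05, 11 of the 48 tested members rose and 15 fell, which left 22 not past the test. These are 54.2% of the members, and over all 12510 genes tested 66.1% were called, 31.9% higher and 34.2% lower. The median log2 fold change of the members was -0.013, against -0.012 over all genes tested, and the median size of the change was 0.14, against 0.28 over all genes tested and 0.25 over the 9296 with a mean of at least 10 CPM. No called member reached 2-fold and 3 reached 1.5-fold (Psmd5, Psmd11 and Psmb10), where 21.4% of all genes tested were called at 1.5-fold or more. The groups did not overlap for 39 of the 48 members, or 81.2%, and for 81.6% of all genes tested. When the columns were scaled to equal totals, the split was 17 higher and 14 lower, so that 54.8% of the called members were higher in place of 42.3%. Members not past the test had log2 fold changes of -0.20 to 0.11, and the smallest change that passed was 0.11 in size.

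**Figure D1:**
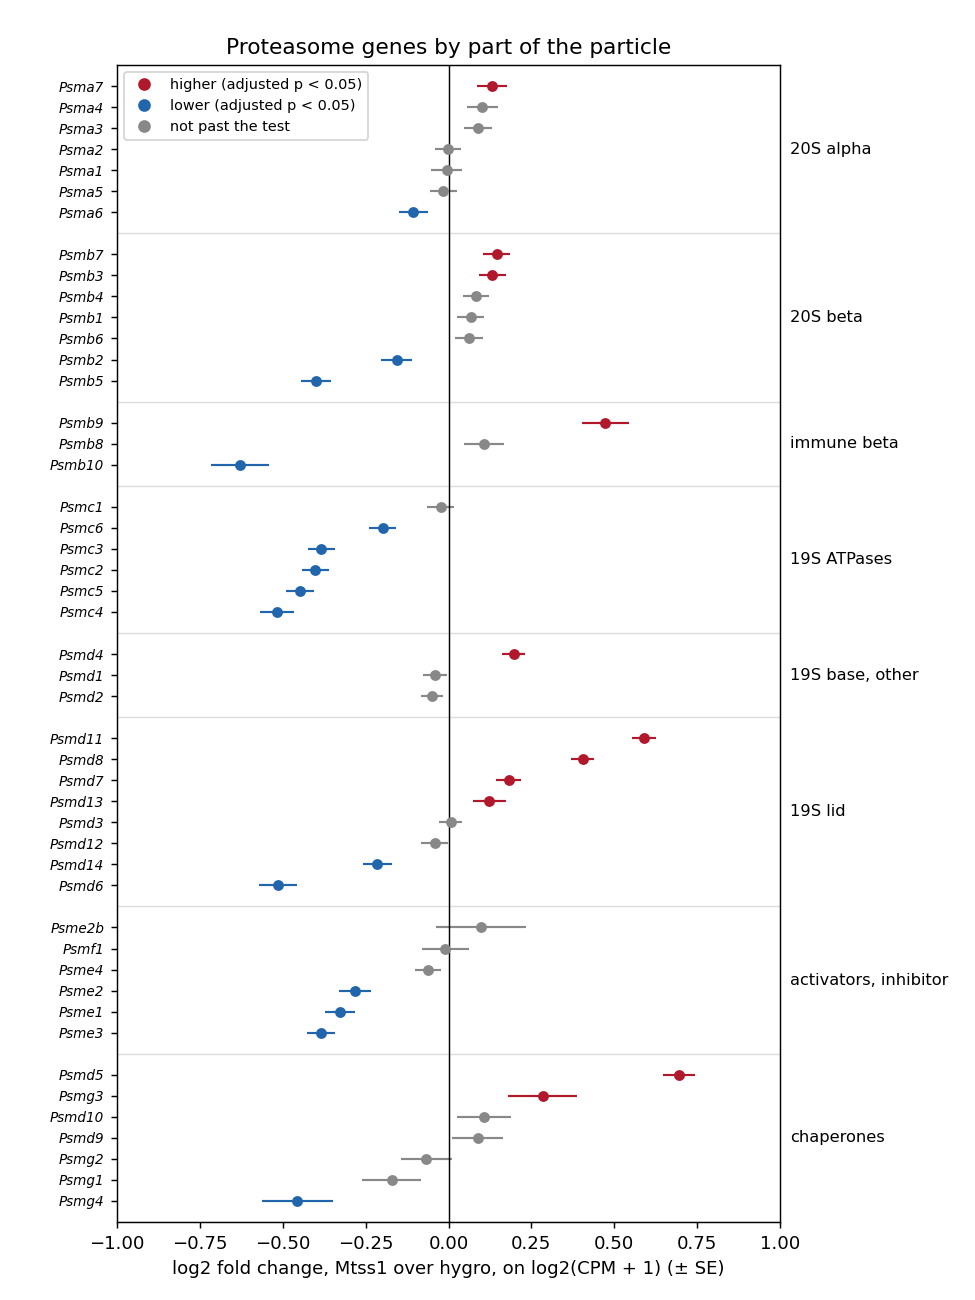
Log2 fold change (Mtss1 over hygro, on log2(CPM + 1)) of 47 tested proteasome genes, grouped by part of the particle; points are fitted values, bars are ± SE, red and blue mark genes past the test and grey those not past it. The ATPases lie at or left of 0, from -0.02 to -0.52, and the lid genes spread from -0.51 to 0.59.

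On the deposited scale the RNA of the whole set summed to nearly the same level in both groups while its parts shifted. All members together read 5816 and 5861 CPM in the hygro libraries and 5804 and 5843 CPM in the Mtss1 libraries, which overlap. As a share of the column total they read 0.576% and 0.577% in the hygro libraries and 0.590% and 0.589% in the Mtss1 libraries, without overlap. The 6 ATPase genes summed to 861 CPM in each hygro library and to 687 and 702 CPM in the Mtss1 libraries, so that their sum fell by 19.4%. The sum of the 8 lid genes went the other way, from 1257 and 1262 CPM to 1416 CPM in each Mtss1 library, higher by 12.4%. Within it Psmd8 went from a mean of 264 to 350 CPM and Psmd11 from 155 to 234 CPM. Of the lid genes 4 rose, 2 fell and 2 did not pass, where 31.9% of all genes tested were called higher and 34.2% lower. The sums of the activators and inhibitor fell by 13.7%, and those of the 7 assembly chaperones were higher by 19.9%. Psmd5 alone went from a mean of 66.9 to 109 CPM in the chaperone sum of 200.4 and 240.3 CPM. The alpha ring (913 and 940 CPM, then 939 and 941 CPM) and the constitutive beta ring (925 and 924 CPM, then 944 and 938 CPM) were higher by 1.46% and 1.73%. These small differences depend on the scaling too. As shares of the column total the alpha ring read 0.0904% and 0.0925%, then 0.0955% and 0.0950%. The constitutive beta ring read 0.0916% and 0.0910%, then 0.0960% and 0.0946%. Sums are given as a description with no test, and the members of a class share their libraries.

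**Figure D2:**
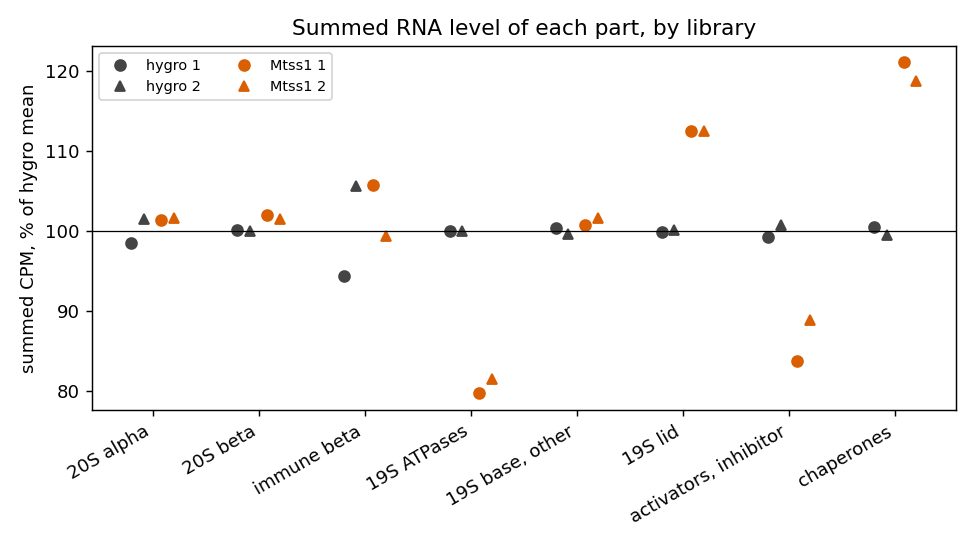
Summed CPM of each class in each library, as a percentage of the mean of the hygro libraries; circles are libraries numbered 1 and triangles libraries numbered 2. The ATPases, activators, lid and chaperones stand apart from the hygro libraries, while the summed immune beta subunits of the groups overlap.

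The alpha ring changed little. Of its 7 tested genes Psma7 rose, Psma6 fell and 5 did not pass, with a range of -0.11 to 0.13 in log2 fold change. Among all genes tested 66.1% were called in either direction. Psma7 read 106 and 111 CPM in the hygro libraries and 124 and 115 CPM in the Mtss1 libraries (0.13 ± 0.05 SE, limma adjusted p = 0.016), and Psma6 read 141 and 134 CPM, then 128 and 127 CPM (-0.11 ± 0.04, limma adjusted p = 0.033). The groups did not overlap for either gene, nor for 81.6% of all genes tested. Neither call held throughout: Psma6 was lost without hygro 1 (limma adjusted p = 0.32), without Mtss1 1 (0.060) and without Mtss1 2 (0.11), as well as with either other scaling (0.056 and 0.16), and Psma7 without hygro 1 (0.14) and without Mtss1 1 (0.21). With no filter on low genes both had an adjusted p of 0.084 in limma. Psma1 read 128 and 139 CPM, then 128 and 138 CPM, and Psma2, with the highest mean of the ring, 163 and 164 CPM, then 161 and 165 CPM (-0.00062 ± 0.04, limma adjusted p = 0.99); in both the groups overlapped. Psma3 did not pass (0.09 ± 0.04, limma adjusted p = 0.060), although it did without hygro 2 (0.049) and with either other scaling. Psma4 read 82.4 and 84.9 CPM, then 88.6 and 91.1 CPM, and Psma5 154 and 165 CPM, then 158 CPM in each Mtss1 library; neither passed.

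Among the constitutive beta genes the catalytic subunit Psmb5 had the largest fall. It encodes the beta5 subunit, which carries the chymotrypsin-like site that proteasome inhibitors used in the clinic target. Psmb5 (ENSMUSG00000022193, mm10 chromosome 14, 54614119 to 54618022, minus strand) read 102 CPM in both hygro libraries and 77.0 and 77.2 CPM in the Mtss1 libraries. Its mean fell from 102 ± 0.242 to 77.1 ± 0.205 CPM (SD, n = 2), by -0.40 ± 0.05 (SE) in log2 fold change (limma adjusted p = 8.2e-08). The other catalytic subunits did not share this fall. Psmb6, of the caspase-like site, read 138 and 143 CPM, then 143 and 150 CPM, and did not pass (0.06 ± 0.04, limma adjusted p = 0.20). Psmb7, of the trypsin-like site, rose from 128 and 124 CPM to 139 and 140 CPM (0.15 ± 0.04, limma adjusted p = 0.0036). An exon of Nek6 on the opposite strand covers 11.8% of the Psmb7 exon bases, and without a statement that strand was used in counting, reads of the pair cannot be told apart.

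The noncatalytic beta genes lay within a narrow band. Psmb2 fell from 91.9 and 90.3 CPM to 81.7 and 81.5 CPM (-0.16 ± 0.05, limma adjusted p = 0.0053), and Psmb3 rose from 128 and 123 CPM to 138 CPM in each Mtss1 library (0.13 ± 0.04, limma adjusted p = 0.0079). Psmb3 did not pass without hygro 2 (limma adjusted p = 0.10). Psmb4, with the highest mean of the ring, read 203 and 208 CPM, then 223 and 213 CPM, with no overlap of the groups but an adjusted p of 0.061 in limma (0.08 ± 0.04). It passed without Mtss1 2 (0.034) and with either other scaling. Psmb1 read 134 and 133 CPM, then 142 and 138 CPM (limma adjusted p = 0.15). Of the 7 constitutive beta genes, 2 rose, 2 fell and 3 did not pass. The shares over all genes tested were 31.9% called higher and 34.2% called lower.

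The 3 immune subunits, which interferon induces and which shape the peptides offered on MHC class I, each behaved differently. Psmb10 (beta2i; ENSMUSG00000031897, chromosome 8, 105935735 to 105938444) read 33.4 and 41.9 CPM in the hygro libraries and 24.8 and 22.9 CPM in the Mtss1 libraries, the largest fitted fall of all members (log2 fold change -0.63 ± 0.09 SE, limma adjusted p = 1.8e-06). Psmb9 (beta1i; ENSMUSG00000096727, chromosome 17, 34181987 to 34187764) read 31.1 and 35.01 CPM, then 48.8 and 43.8 CPM, a rise of 0.47 ± 0.07 (limma adjusted p = 5.3e-06). Psmb8 (beta5i; ENSMUSG00000024338, chromosome 17, 34197721 to 34201454) read 43.7 and 44.2 CPM, then 47.6 and 47.2 CPM, and did not pass (0.11 ± 0.06, limma adjusted p = 0.12), although it did with columns scaled to equal totals (0.038). The groups did not overlap for any of the 3, which held for 81.6% of all genes tested. The hygro libraries differed more from each other for Psmb10 (SD 6.02 CPM) than the Mtss1 libraries did (1.36 CPM). Without hygro 2 the Psmb10 fall was -0.47, beside -0.48 for Psmc4 and -0.50 for Psmd6. Psmb9 and its neighbour Tap1 share 212 exon bases on opposite strands, 5.79% of the Psmb9 exon bases, so some reads of Tap1 (125 and 128 CPM, then 143 and 142 CPM) could count for Psmb9.

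Each immune subunit takes the place of 1 constitutive subunit, so the ratio of their CPM within a library was followed. Psmb8 to Psmb5 stood at 0.427 and 0.434 in the hygro libraries and at 0.619 and 0.611 in the Mtss1 libraries, 1.43 times as high on average. Psmb9 to Psmb6 went from 0.226 and 0.245 to 0.341 and 0.291, a ratio of 1.34 between the means. Psmb10 to Psmb7 moved down, from 0.261 and 0.337 to 0.178 and 0.164, which is 0.572 of the hygro mean. In none of the 3 ratios did the groups overlap, and of single genes tested 81.6% did not overlap either. The beta5 ratio moved mainly through its constitutive member and the beta2 ratio mainly through its immune member. These ratios are CPM ratios, not ratios per length, and are given without a test, since an exact permutation of 2 libraries against 2 cannot give a p below 0.333.

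**Figure D3:**
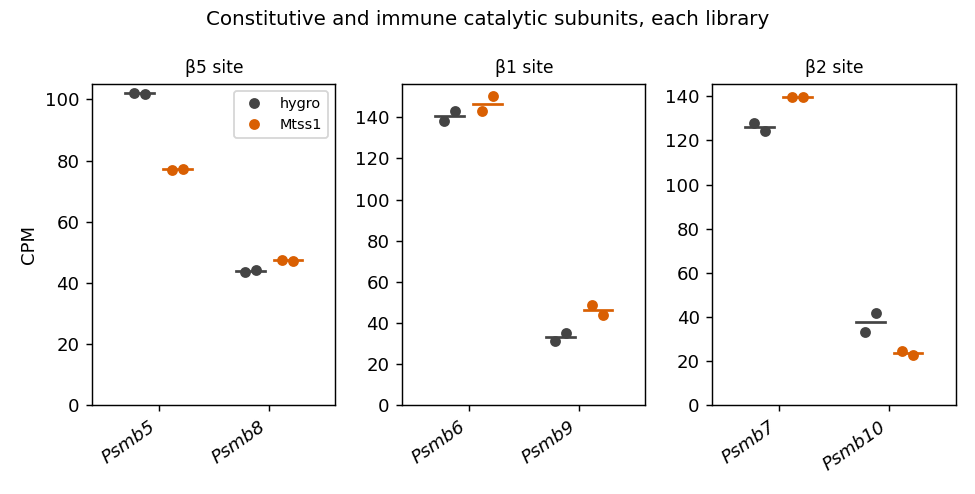
CPM of the constitutive subunit (left) and the immune subunit (right) for each catalytic site; points are single libraries, short lines group means. Psmb5 drops from 102 to 77.1 CPM beside a near-level Psmb8, and Psmb9 and Psmb10 move in opposite directions.

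Other genes of class I presentation were no more uniform. Among 11 such genes 4 were called higher and 5 lower, and 2 were not past the test, with a median log2 fold change of -0.07. Over all genes tested 31.9% were called higher and 34.2% lower. The class I transactivator gene Nlrc5 fell most (184 and 180 CPM, then 106 and 111 CPM), and Calr, the chaperone calreticulin, rose most (575 and 573 CPM, then 849 and 839 CPM). Tap2, whose product pairs with that of Tap1 to carry peptides into the endoplasmic reticulum, fell from 66.8 and 66.5 CPM to 50.1 and 52.5 CPM (-0.37 ± 0.05, limma adjusted p = 3.1e-06), whereas Tap1 rose (0.17 ± 0.04, limma adjusted p = 0.0011). The leukocyte marker Ptprc read at most 0.098 CPM in any library.

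The ATPase ring was lower in 5 of its 6 genes and higher in none, with a median log2 fold change of -0.39. Over all genes tested 34.2% were called lower. Psmc4 (ENSMUSG00000030603, chromosome 7, 28041707 to 28050101) fell most, from 89.3 and 94.8 CPM to 62.6 and 65.4 CPM, which is -0.52 ± 0.05 (SE) in log2 fold change (limma adjusted p = 7.0e-09). Psmc5 fell from 151 and 157 CPM to 111 and 114 CPM (-0.45 ± 0.04), and Psmc2 from 156 and 155 CPM to 115 and 120 CPM (-0.40 ± 0.04). Both had limma adjusted p-values of 1.5e-08 or lower. Their groups did not overlap, which held for 81.6% of all genes tested. Psmc3 read 148 and 150 CPM, then 113 and 114 CPM (-0.38 ± 0.04), and Psmc6, which has the highest mean of the ring, read 175 and 164 CPM, then 148 and 147 CPM (-0.20 ± 0.04, limma adjusted p = 0.00023). Psmc1 was the exception: at 142 and 140 CPM, then 137 and 141 CPM, its groups overlapped (-0.02 ± 0.04, limma adjusted p = 0.64). The 5 calls held in all 13 alternative settings. Slc39a13 covers 8.25% of the Psmc3 exon bases on the opposite strand.

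The products of these 6 genes stand in the complex in equal number, while their RNA per length did not. Per kilobase of principal transcript the ATPases had a hygro mean of 64.0 CPM (Psmc4) to 117 CPM (Psmc5), and a Mtss1 mean of 44.4 CPM (Psmc4) to 87.2 CPM (Psmc1). The highest was 1.83 times the lowest in the hygro group and 1.96 times in the Mtss1 group; by merged exon lengths these were 3.58 and 3.46 times. On the same scale the 14 constitutive core genes ran from 49.4 CPM (Psma3) to 176 CPM (Psmb6) per kilobase in the hygro group, with a median of 112. Psmb8, Psmb9 and Psmb10 stood at 27.0, 24.5 and 28.7 CPM per kilobase there, well under Psmb5 (114), Psmb6 (176) and Psmb7 (109). With merged exon lengths in place of the principal transcript, the median of the 14 core genes was 49.97 CPM per kilobase.

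The remaining base subunits did not follow the ATPases. Psmd4, an intrinsic ubiquitin receptor, rose from 221 and 218 CPM to 253 and 250 CPM (0.20 ± 0.04, limma adjusted p = 5.4e-05). The scaffold genes Psmd2 (463 and 457 CPM, then 443 and 447 CPM), the member with the highest mean CPM, and Psmd1 (225 and 227 CPM, then 215 and 224 CPM) did not pass (-0.05 ± 0.03 and -0.04 ± 0.04, limma adjusted p = 0.21 and 0.35). Adrm1, a further ubiquitin receptor of the base with a symbol outside the Psm pattern, read 99.9 to 101 CPM in 3 libraries and 95.4 CPM in Mtss1 2 (limma adjusted p = 0.42).

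The lid split, with 4 genes higher, 2 lower and 2 not past the test. Psmd11 (ENSMUSG00000017428, chromosome 11, 80428615 to 80473248), a lid subunit that clamps the regulatory particle to the core, rose from 156 and 155 CPM to 234 and 235 CPM. This rise was 0.59 ± 0.04 (SE) on the log2 scale, at an adjusted p of 4.3e-12 in limma. Psmd8 rose from 264 CPM in each hygro library to 354 and 347 CPM (0.40 ± 0.03, limma adjusted p = 8.0e-10). Psmd6 (chromosome 14, 14112174 to 14120984) went down from 57.5 and 59.0 CPM to 40.5 and 40.4 CPM (-0.51 ± 0.06, limma adjusted p = 7.0e-08), so that the ratio of Psmd11 to Psmd6 CPM stood at 2.72 and 2.62 in the hygro libraries and at 5.77 and 5.80 in the Mtss1 libraries. Psmd14, the metalloprotease that cuts ubiquitin chains from substrates, fell from 120 CPM in each hygro library to 101 and 105 CPM (-0.22 ± 0.04, limma adjusted p = 0.00016).

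Psmd7, the inactive partner of Psmd14 in the lid, went up from 168 and 164 CPM to 187 and 189 CPM (0.18 ± 0.04, limma adjusted p = 0.00026). Psmd13 read 73.8 and 72.9 CPM, then 78.6 and 81.4 CPM (0.12 ± 0.05, limma adjusted p = 0.031). The Psmd13 call was lost without hygro 1 (0.076), without hygro 2 (0.13), without Mtss1 2 (0.15) and with no filter (0.0501), and an exon of Sirt3 on the opposite strand covers 10.1% of its exon bases. Psmd3, the lid gene with the second highest mean, read 289 and 303 CPM, then 297 and 296 CPM, with overlap, and Psmd12 read 129 and 124 CPM, then 123 CPM in each Mtss1 library; neither passed. Sem1, the small lid subunit outside the Psm pattern, was at 110 and 112 CPM, then 117 and 114 CPM (limma adjusted p = 0.28).

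**Figure D4:**
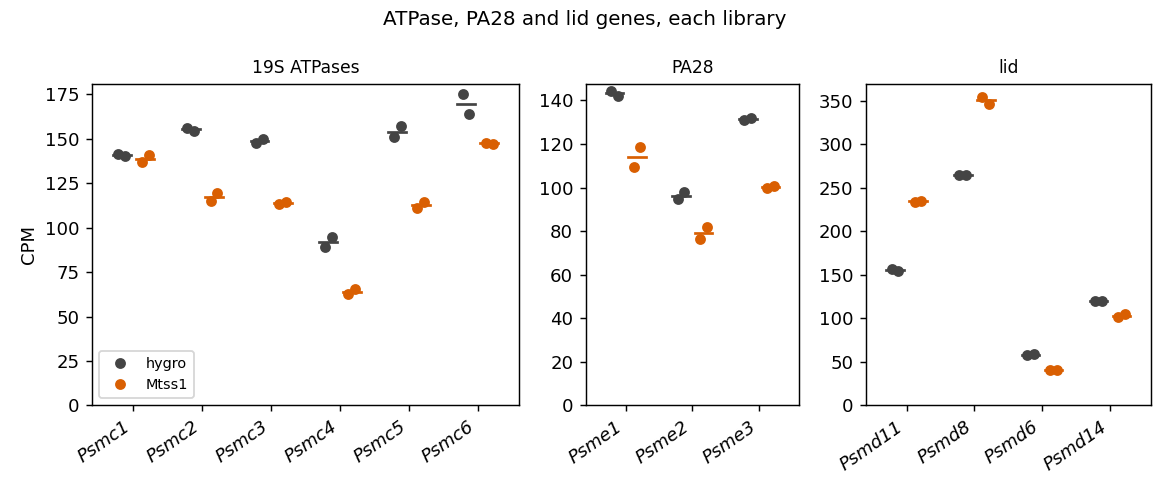
CPM of the ATPase genes, the PA28 genes and the 4 lid genes with the largest changes in either direction; points are single libraries, short lines group means. The PA28 genes and 5 of the ATPases are lower in both Mtss1 libraries, while Psmd11 and Psmd8 are higher.

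All 3 PA28 genes were lower, where 34.2% of all genes tested were called lower. Psme1 and Psme2 encode the alpha and beta chains of the interferon-inducible ring that opens the core from its end, and Psme3 the gamma form found in the nucleus. Psme3 (chromosome 11, 101316213 to 101323537) fell from 131 and 132 CPM to 100 and 101 CPM, a log2 fold change of -0.38 ± 0.04 (SE; limma adjusted p = 4.4e-08). Psme1 fell from 144 and 142 CPM to 109 and 119 CPM (-0.33 ± 0.04, limma adjusted p = 1.1e-06), and Psme2 from 94.5 and 97.8 CPM to 76.3 and 81.7 CPM (-0.28 ± 0.05, limma adjusted p = 2.8e-05). The groups did not overlap for these genes, nor for 81.6% of all genes tested. The calls of the 3 PA28 genes held in all 13 alternative settings. Psme4, a single-chain activator and the member of this class with the highest mean, read 218 and 225 CPM, then 205 and 220 CPM, with overlap. It did not pass (-0.06 ± 0.04, limma adjusted p = 0.18), but did without Mtss1 2 (0.040). Psmf1, a proteasome inhibitor in the test tube, read 31.8 to 32.3 CPM over the 4 libraries. Psme2b did not pass (7.19 and 7.81 CPM on average), and since its transcript is 99.4% identical to that of Psme2 over 794 aligned bases, the division of reads between them is uncertain.

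The chaperones of the regulatory particle and of the core did not move together. Psmd5 (ENSMUSG00000026869, chromosome 2, 34849734 to 34874968), which escorts part of the ATPase ring during assembly and leaves before the proteasome is complete, had the largest rise of all members. It read 68.8 and 65.0 CPM in the hygro libraries and 111 and 107 CPM in the Mtss1 libraries, a log2 fold change of 0.69 ± 0.05 (SE; limma adjusted p = 2.5e-11). The other base chaperones, Psmd9 (27.3 and 26.6 CPM, then 29.8 and 27.6 CPM) and Psmd10 (24.2 and 26.0 CPM, then 26.0 and 28.3 CPM), did not pass (limma adjusted p = 0.33 and 0.25).

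Of the chaperones that build the alpha ring, Psmg4 fell from 15.7 and 16.8 CPM to 12.3 and 10.8 CPM (-0.46 ± 0.11, limma adjusted p = 0.00075). Its partner Psmg3 rose from 11.8 and 12.8 CPM to 15.1 and 15.2 CPM (0.28 ± 0.10, limma adjusted p = 0.021), a call lost without hygro 1 (0.14), without Mtss1 1 (0.059), without Mtss1 2 (0.062) and with no filter (0.060). Psmg1 (21.4 and 23.3 CPM, then 20.4 and 19.1 CPM) and Psmg2 (32.1 and 29.1 CPM, then 28.4 and 29.9 CPM), which form the other pair, did not pass (limma adjusted p = 0.095 and 0.46). Pomp, the maturation factor of the beta rings, which lies outside the Psm pattern, rose from 41.9 and 42.2 CPM to 63.3 and 64.2 CPM (0.59 ± 0.06, limma adjusted p = 5.0e-09). It was the gene that passed among the 3 proteasome parts with other symbols (Adrm1, Sem1 and Pomp).

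The promoters of members that rose and of members that fell were read for the letters of factors known from proteasome genes. RefSeq windows of GRCm38.p6, from 250 bases before to 50 after the start site, were found for 42 of the 50 members, some with more than 1 start site. None was used for Psma8, Psmb1, Psmb2, Psmb7, Psmc3, Psmd3, Psmd7 and Psmg2. Below are the stretches before the start site, without bases that GENCODE assigns to an exon, for Psmd11, which rose, and for Psme3, Psmc6 and Psmb5, which fell. Capitals mark the ETS core (CCGGAAG on either strand) in the first 3. In Psmb5 they mark the antioxidant response element (TGACNNNGC on either strand), through which Nfe2l1 acts. The genes shown were chosen by name, and each stretch holds a match. The windows of Psmd5, which rose, and of Psmb10 and Psmc4, which fell, held neither motif.
Psmd11, chr11:80428465-80428614, plus strand: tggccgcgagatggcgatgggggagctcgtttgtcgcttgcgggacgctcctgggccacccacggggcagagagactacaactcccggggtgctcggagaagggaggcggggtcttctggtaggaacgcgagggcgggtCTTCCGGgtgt
Psme3, chr11:101316063-101316212, plus strand: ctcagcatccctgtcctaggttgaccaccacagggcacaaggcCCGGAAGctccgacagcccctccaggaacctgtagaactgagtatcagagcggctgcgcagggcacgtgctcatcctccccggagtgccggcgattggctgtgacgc
Psmc6, chr14:45329674-45329787, plus strand: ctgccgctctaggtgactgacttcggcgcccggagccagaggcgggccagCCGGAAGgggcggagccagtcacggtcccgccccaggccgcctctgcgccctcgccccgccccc
Psmb5, chr14:54618023-54618145, minus strand: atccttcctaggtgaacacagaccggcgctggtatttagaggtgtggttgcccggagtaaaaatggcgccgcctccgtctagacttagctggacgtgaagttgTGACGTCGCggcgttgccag

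The ETS core stood in the windows of 15 of the 42 members (35.7%), against 9.93% of all 27025 genes with a window and 21.2% of the 9137 of them that were tested. It was present in 4 of 9 members that rose, 5 of 13 that fell and 6 of 19 that did not pass. Psmc3ip, which is not a subunit, is counted in these 15 and these 6, and in the shares of CCAAT and of GGGA with CC below. The antioxidant response element stood in 6 members (14.3%): Psmb5, Psmb6, Psmc6, Psmd9, Psmd12 and Psme4. Over all genes with a window its share was 14.0%, and over those tested 17.1%. The element was in 0 of 9 members that rose, 2 of 13 that fell (Psmb5 and Psmc6) and 4 of 19 not past. GAAA, any 2 bases and GAAA again, the core of interferon-stimulated elements, were in the windows of Psmb3, Psmd4, Psmd9, Psme1 and Psmg4 (11.9% of members, 3.99% of all genes, 3.91% of tested genes). CCAAT was found in 35.7% of members and 41.1% of all genes, and GGGA with CC after any 4 bases, a loose form of the NF-kB site, in 26.2% and 22.9%; over the tested genes these shares were 44.1% for CCAAT and 30.4% for GGGA with CC. Both strands were searched, and letters in these short windows are a description, not a site.

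Genes that control proteasome expression were mostly lower, with 1 higher and 3 lower of 4, where 34.2% of all genes tested were called lower. Nfe2l1, the transcription factor that raises proteasome genes when degradation is blocked, read 776 and 760 CPM, then 827 and 822 CPM (0.10 ± 0.03, limma adjusted p = 0.0083). Its activating protease Ddi2 fell from 179 and 175 CPM to 110 and 108 CPM, a log2 fold change of -0.70 ± 0.04 (SE; limma adjusted p = 9.8e-13). Ngly1, the enzyme that strips sugars from the Nfe2l1 product, fell from 14.5 and 14.3 CPM to 11.7 and 11.5 CPM (-0.29 ± 0.11, limma adjusted p = 0.020). The antioxidant factor gene Nfe2l2 fell from 170 and 164 CPM to 111 and 109 CPM (-0.60 ± 0.04, limma adjusted p = 1.7e-11).

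Of 4 genes for ubiquitin and its activation described here, 1 rose (Ubb), none fell and 3 did not pass the test. Ubb, a polyubiquitin gene, read 1114 and 1109 CPM, then 1273 and 1233 CPM (0.17 ± 0.03, limma adjusted p = 8.0e-05), while Uba1, the main activating enzyme, read 641 and 645 CPM, then 646 and 653 CPM and did not pass. Of 8 genes of the p97 segregase, 2 fell (Faf2 and Nsfl1c) and 6, Vcp among them, did not pass. The segregase pulls ubiquitinated proteins out of complexes. Beside both lists, 31.9% of all genes tested were called higher and 34.2% lower.

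**Figure D5:**
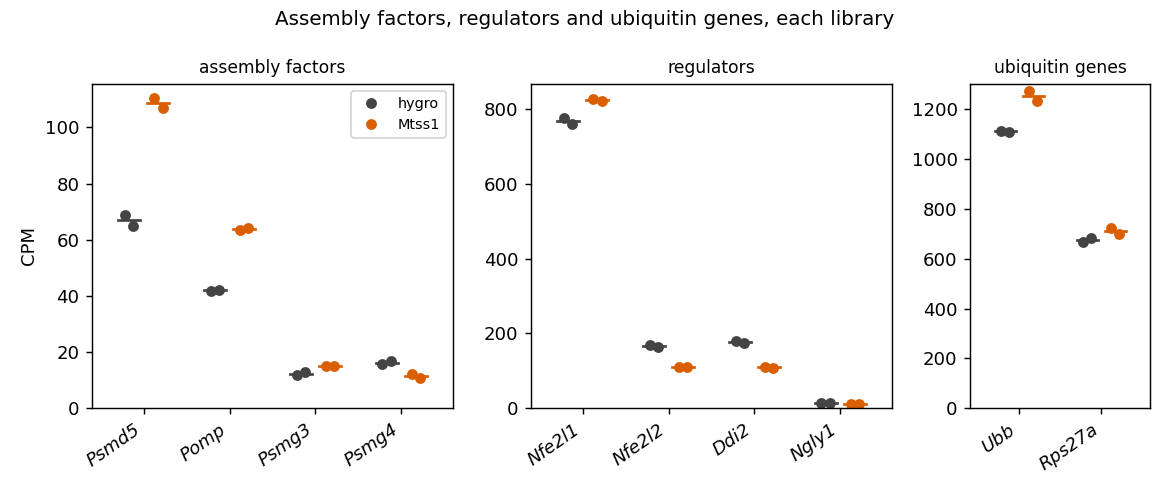
CPM of assembly factors, of regulators of proteasome genes and of ubiquitin genes; points are single libraries, short lines group means, and each panel has its own axis from 0. Psmd5 and Pomp are higher and Ddi2 and Nfe2l2 lower in both Mtss1 libraries.

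Of 13 genes for enzymes, shuttles and adaptors that bind the proteasome, 3 rose, 4 fell and 6 did not pass. For comparison, 31.9% of all genes tested were called higher and 34.2% lower. The ubiquitin shuttle gene Ubqln2 rose from 41.1 and 39.9 CPM to 65.5 and 61.3 CPM (0.63 ± 0.06, limma adjusted p = 3.2e-09), and Txnl1, a thioredoxin of the regulatory particle, from 145 and 153 CPM to 201 and 194 CPM. Akirin2, needed for the import of proteasomes into the nucleus, fell from 106 and 107 CPM to 74.0 and 69.7 CPM (-0.56 ± 0.05, limma adjusted p = 6.6e-10). Zfand5, which binds and stimulates the proteasome, fell from 149 and 155 CPM to 103 and 111 CPM (-0.50 ± 0.04, limma adjusted p = 1.4e-09). The deubiquitinase gene Usp14 rose by 0.15 ± 0.04 (limma adjusted p = 0.0026). The amount and activity of assembled proteasomes were not measured.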

How the data were processed

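RNA sequencing values of 4 libraries, 2 per group, were taken from the authors' deposited table. Its unit, CPM, was assigned from the values: column sums lie between 982877 and 1016225, and 79.6% to 80.5% of the nonzero deposited values in a library are multiples of the CPM of 1 read, within 0.005 read. STAR, RSEM, FastQC 0.11.2 and the mm10 build are named per the submitters' processing notes, without their order; the scaling step is not stated there. A floor of 3 reads is 0.138 to 0.189 CPM.

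Limma 3.58.1 in R 4.3.3 (lmFit, eBayes with a mean-dependent prior) was fitted on log2(CPM + 1) to the 12510 genes that reached 1 CPM in 2 or more libraries, with Benjamini-Hochberg adjustment over all of them and a threshold of 0.05. The fit had 2 residual degrees of freedom and a prior worth 20.0. On this scale differences of low genes are understated. Over genes with at least 50 reads, squared differences between libraries were scaled by their Poisson variance. Within groups their median was 1.75 (Mtss1) and 2.02 (hygro) times that of Poisson noise, and these libraries were kept as replicates. Between same-numbered libraries of the groups the median was 29.6 and 30.3 times. The members and lists were chosen with earlier results of these data known. The text names all tested members, with full statistics for the catalytic subunits, for the largest rise and fall and the highest mean of each class, and for the largest rise and fall of most other lists. Exon lengths came from GENCODE M21 (mm10), which held all 50 members; the principal transcript length was chosen after the annotation was read. Promoters came from RefSeq (GRCm38.p6, the same build). Some genes of the lists are not reported here. Alternatives are given in the closing section.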

Additional observations from a re-analysis of the deposited data

How the results depend on the processing

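In 13 alternative settings no called member changed sign, 21 of the 26 calls held in each of them, and 5 (Psma6, Psma7, Psmb3, Psmd13 and Psmg3) were lost in at least 1. Another 7 members passed in at least 1 setting and not in the main analysis. Scaling the columns to equal totals gave 17 members higher and 14 lower in place of 11 and 15, and a median log2 fold change of the members of 0.024 against -0.013; that scaling moved the median over all genes tested from -0.012 to 0.02. Median-of-ratios scaling gave 14 higher and 14 lower. Limma-voom on the recovered expected counts, pseudocounts of 0.1 and 5, and at least 1 CPM in all libraries each gave 11 and 15 and called the same 26 members. No filter gave 8 and 14, as did an adjusted p under 0.01. Leaving out 1 library gave 8 to 10 members higher and 14 to 15 lower, and medians of -0.042 (without Mtss1 2) to -0.00063. With the replicate number as a block the counts were 11 and 15, the same 26 members, and 4040 genes higher and 4337 lower over the whole table, against 3991 and 4282. Deviations of same-numbered libraries correlated at -0.02 over genes, so no shared effect of the number was seen. This value cannot show whether same-numbered libraries were prepared together. The median level of the 14 core genes per kilobase was 49.97 CPM by merged exons and 112 CPM by principal transcript length, since merged exons include those of longer, minor transcripts. With 2 libraries a group, the smallest member change that passed was 0.11 in size, while -0.20 (Psmc3ip) and -0.17 (Psmg1) did not pass. Differences of such size may thus go undetected in some members, as may smaller ones.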
